A study of Mus musculus with 24 samples.

Results

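The 10 genes described here are Nfe2l2, which encodes the transcription factor NRF2, and 9 of its best known targets: Nqo1, Hmox1, Gclc, Gclm, Gsr, Txnrd1, Srxn1, G6pdx and Osgin1. They were chosen by name, as a textbook list and with earlier results of these data known, from 39017 gene identifiers in the count files. All 10 were found there, and all 10 were among the 14361 genes tested. NRF2 is made continuously in most cells and is continuously destroyed, because KEAP1 presents it to a CUL3 ubiquitin ligase. Oxidants and electrophiles modify KEAP1, after which NRF2 accumulates, pairs with a small MAF protein and binds the antioxidant response element, a short DNA motif that the repressor BACH1 otherwise occupies. The targets make and reduce glutathione, keep thioredoxin and peroxiredoxins reduced, supply NADPH, reduce quinones and break down haem, and in fibroblasts they set how well cells withstand oxidants.

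RNA was sequenced from NIH 3T3 cells, an immortalised mouse embryonic fibroblast line, in 24 libraries that form 8 groups of 3. Each line was a pool of cells transduced with the pBabeNeo retroviral vector and selected with G418, so every group, the controls included, carried a vector and a selection marker. The study asked what the sarcoma fusion proteins TAZ-CAMTA1 and YAP-TFE3 do to transcription in comparison with the proteins they derive from. The confluent groups, held at confluence for 48 h, were empty vector (EV), full-length TFE3, TAZ-CAMTA1, YAP-TFE3, TAZ4SA and YAP5SA. TAZ4SA and YAP5SA are TAZ and YAP in which serines phosphorylated by the Hippo pathway kinases were changed to alanine. The sub-confluent groups were full-length CAMTA1 and a second empty vector group (EVsub). Expression came from the retroviral vector in addition to the endogenous genes, and no drug or oxidant was given.

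Total counts per library ran from 16471181 to 30132586, with a median of 22298975, and each of the 10 genes had at least 86 counts in every library. The 12 fibroblast markers summed to between 20890 and 57527 CPM (counts scaled to library size), while Epcam (epithelial) and Adgre1 (macrophage) had no count in any library. The 6 epithelial genes summed to 0.133 to 0.338 CPM in EV and 7.85 to 9.25 in YAP5SA, with at most 1.76 in every other group, and the 6 endothelial genes to 2.34 to 4.60 CPM in EV, 8.71 to 12.4 in TAZ4SA and 7.997 to 9.12 in YAP5SA, with at most 4.94 elsewhere. The 6 myeloid genes summed to 3.485 to 4.9997 CPM in EV, 23.0 to 26.2 in TAZ-CAMTA1, 17.2 to 68.0 in TAZ4SA, 84.1 to 133 in YAP5SA and 118 to 244 in YAP-TFE3, through Lyz2, Cd68 and Csf1r, while the leukocyte marker Ptprc reached at most 4 counts. In such bulk RNA, more cells of a type and more RNA per cell cannot be told apart, and the part of these transcripts in the results below was not tested. Reads of Camta1 rose in CAMTA1 over EVsub by 1.07 on the log2 scale (adjusted p = 0.0019) and Wwtr1, the gene of TAZ, rose in TAZ4SA over EV by 0.28 (adjusted p = 0.0113). Tfe3 differed from EV by -0.30 in the TFE3 group (adjusted p = 0.308) and Yap1 fell by 0.86 in YAP5SA (adjusted p = 8.1e-09), and in the fusion groups neither parent gene rose: Wwtr1 and Camta1 differed from EV by 0.17 and -0.06 in TAZ-CAMTA1 (adjusted p = 0.19 and 0.85) and Yap1 and Tfe3 by -0.19 and -0.16 in YAP-TFE3 (adjusted p = 0.136 and 0.51). Tfe3 also rose in TAZ4SA (0.58, adjusted p = 0.00103) and YAP5SA (0.87, adjusted p = 7.4e-06), groups without a TFE3 construct. The counts thus give no check of the TFE3, YAP5SA, TAZ-CAMTA1 and YAP-TFE3 labels. The Wwtr1 rise of 0.28 does not by itself check the TAZ4SA label. For the genes described here several libraries stood apart from their group. EVsub replicate 3 was the lowest of its group for 7 of the 9 targets, and TAZ4SA replicate 3 had 76.8 CPM of Hmox1 against 253 and 176 in replicates 1 and 2. Results that rest on these 2 libraries are given with and without them. YAP-TFE3 replicate 2 was the lowest of its group for all 9 targets and CAMTA1 replicate 3 for 8.

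In the mm10 assembly the genes lie at chr2:75675513-75704641 (Nfe2l2, minus strand), chr2:152105516-152111376 (Srxn1, plus), chr3:122245557-122270732 (Gclm, plus), chr8:33652523-33698163 (Gsr, plus), chr8:75093621-75100589 (Hmox1, plus), chr8:107388225-107403206 (Nqo1, minus), chr8:119434124-119446256 (Osgin1, plus), chr9:77754535-77794485 (Gclc, plus), chr10:82833951-82897712 (Txnrd1, plus) and chrX:74409483-74429194 (G6pdx, minus). All 10 are protein coding. Gclm overlaps the annotated genes Gm17494, on the opposite strand, and Gm6061, on its own strand, while G6pdx overlaps Ikbkg on the opposite strand, and Nfe2l2 and Gsr each hold a small RNA gene on their own strand (Gm24996 and Gm24727). Whether the authors' counting used strand is not given in the sources used here, so reads in these overlaps could be shared.

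Promoter windows of 300 bases around an annotated start were taken from RefSeq (GRCm38.p6). A window was found for 7 of the 10 genes (9 windows, since Txnrd1 has 3), and Hmox1, Gclc and Gsr had none. The antioxidant response element core TGACNNNGC, searched on both strands, was present in windows of 5 genes, where 12.4% of 32851 mouse windows of the same length hold it. These matches are shown because they are the letters to which NRF2 with a small MAF protein is known to bind, each with 10 bases on either side, read 5′ to 3′ on the strand of the gene and with the match in capitals. Matches on the other strand appear as the reverse complement of the core.
Nfe2l2, 240 to 232 bases before the start: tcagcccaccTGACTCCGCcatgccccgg
Gclm, 134 to 126 bases before the start: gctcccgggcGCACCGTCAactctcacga
Txnrd1, 92 to 84 bases before the start of window 2: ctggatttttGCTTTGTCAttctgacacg
G6pdx, 57 to 49 bases before the start: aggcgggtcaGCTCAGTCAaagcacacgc
Srxn1, 29 to 37 bases after the start: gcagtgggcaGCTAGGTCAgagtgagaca
The match lay on the strand of the gene in Nfe2l2 and on the other strand in the remaining 4. The related AP-1 motif TGANTCA, to which FOS and JUN proteins bind, occurred at 3 places in 2 genes and in 7.81% of all windows, and no AP-1 match overlapped a match to TGACNNNGC.
Srxn1, 102 to 96 bases before the start: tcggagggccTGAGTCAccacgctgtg
Srxn1, 45 to 39 bases before the start: aaattcacccTGAGTCAgcggccgggc
Osgin1, 97 to 91 bases before the start: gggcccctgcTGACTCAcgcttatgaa
None of the 9 windows held the E-box CACGTG, which MiT/TFE factors such as TFE3 bind (7.15% of all windows), or the TEAD motif GGAATG (14.7% of all windows). Sequence outside these windows, where more distant sites would lie, was not searched for any of the motifs. A match is a description of the letters and was not tested as a binding site. Whole windows follow for Txnrd1, called higher over EV in both fusions, TAZ4SA and YAP5SA, and for Nqo1, with the widest range of group means. They are the second Txnrd1 window (chr10:82858956-82859255, plus strand), with its match in capitals, and the Nqo1 window (chr8:107403156-107403455, minus strand), in which none of the 4 motifs occurred.
Txnrd1: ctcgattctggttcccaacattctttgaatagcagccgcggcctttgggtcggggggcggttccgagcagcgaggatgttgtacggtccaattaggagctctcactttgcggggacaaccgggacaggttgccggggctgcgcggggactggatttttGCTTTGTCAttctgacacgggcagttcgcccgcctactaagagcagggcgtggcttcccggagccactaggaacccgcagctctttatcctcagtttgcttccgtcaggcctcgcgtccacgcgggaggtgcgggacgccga
Nqo1: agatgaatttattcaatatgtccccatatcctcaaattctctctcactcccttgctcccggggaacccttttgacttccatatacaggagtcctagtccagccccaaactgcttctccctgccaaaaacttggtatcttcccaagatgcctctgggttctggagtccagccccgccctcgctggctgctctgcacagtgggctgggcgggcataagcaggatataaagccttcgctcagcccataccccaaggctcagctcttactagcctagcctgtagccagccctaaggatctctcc

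In confluent EV cells the genes were expressed over a wide range. Per kilobase of annotated exon, Hmox1, the haem oxygenase that releases iron, carbon monoxide and biliverdin from haem, had the highest mean level at 91.6 CPM per kb ± 14.8 (SD, n = 3). Nfe2l2 followed at 34.4 ± 2.06, Srxn1 at 32.8 ± 2.94, G6pdx at 27.3 ± 0.873 and Txnrd1 at 23.7 ± 1.27. Gsr stood at 9.95 ± 2.62, Gclc at 6.63 ± 0.388 and Gclm at 5.88 ± 0.707. Nqo1, at 3.53 ± 0.174, and Osgin1, at 2.68 ± 0.257, were the lowest. The order of the group means differed from gene to gene, and the ratio of the highest to the lowest group mean was 12.3 for Nqo1, 3.00 for Osgin1, 2.46 for Txnrd1, 2.01 for Gclm, 1.99 for G6pdx, 1.90 for Gsr, 1.89 for Gclc, 1.75 for Hmox1, 1.59 for Srxn1 and 1.35 for Nfe2l2.

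**Figure D1:**
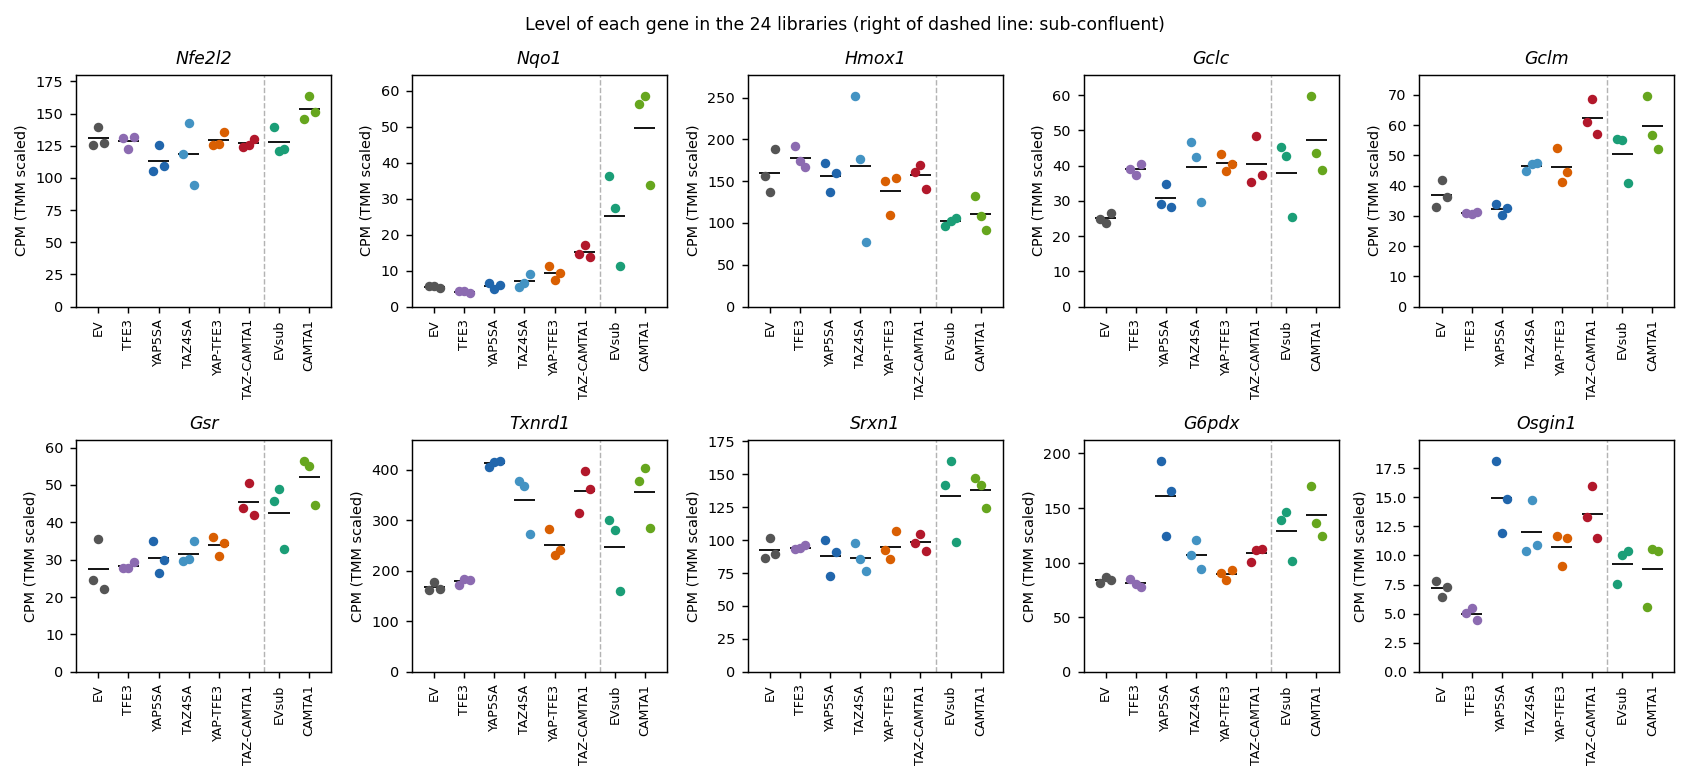
Each panel plots one gene's CPM, scaled by TMM factors, on a linear axis from 0 in the 8 groups; points are the 3 libraries of a group, in the order of their replicate numbers, and black lines are group means. Nqo1 ranges from 3.63 CPM in a TFE3 library to 58.7 in a CAMTA1 library, and Nfe2l2 from 94.7 to 164 CPM.

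The mRNA of NRF2 itself was among the steadiest of the 10. Nfe2l2 stood at 126, 140 and 127 CPM in the EV libraries, 124, 126 and 131 in TAZ-CAMTA1 and 126, 127 and 136 in YAP-TFE3, so that both fusions lay within the range of EV or next to it. No comparison passed the test for Nfe2l2. The log2 fold change over EV was -0.04 for TAZ-CAMTA1 (95% interval -0.28 to 0.19, adjusted p = 0.828), -0.02 for YAP-TFE3 (-0.25 to 0.22, adjusted p = 0.954) and -0.14 for TAZ4SA (-0.37 to 0.09, adjusted p = 0.298). YAP5SA, at 105, 125 and 109 CPM, was below every EV library, with a log2 fold change of -0.20 (-0.44 to 0.03, adjusted p = 0.109). CAMTA1, at 146, 164 and 151 CPM, was above every EVsub library (140, 121 and 123), with a log2 fold change of 0.27 (0.03 to 0.50, adjusted p = 0.214). Without TAZ4SA replicate 2, the highest of its group, Nfe2l2 fell by 0.29 in TAZ4SA against EV (adjusted p = 0.0244), and without TAZ4SA replicate 3 or YAP-TFE3 replicate 1, libraries outside the comparison, it fell in YAP5SA against EV (adjusted p = 0.0457 and 0.0452). That fall also passed with at least 10 counts in every library (-0.30, adjusted p = 0.0128) and with only the groups compared (-0.24, adjusted p = 0.0325). With that count floor Nfe2l2 was higher in YAP-TFE3 than in YAP5SA (0.27, adjusted p = 0.022). NRF2 is controlled mainly through the stability of the protein, which these counts do not measure.

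**Figure D2:**
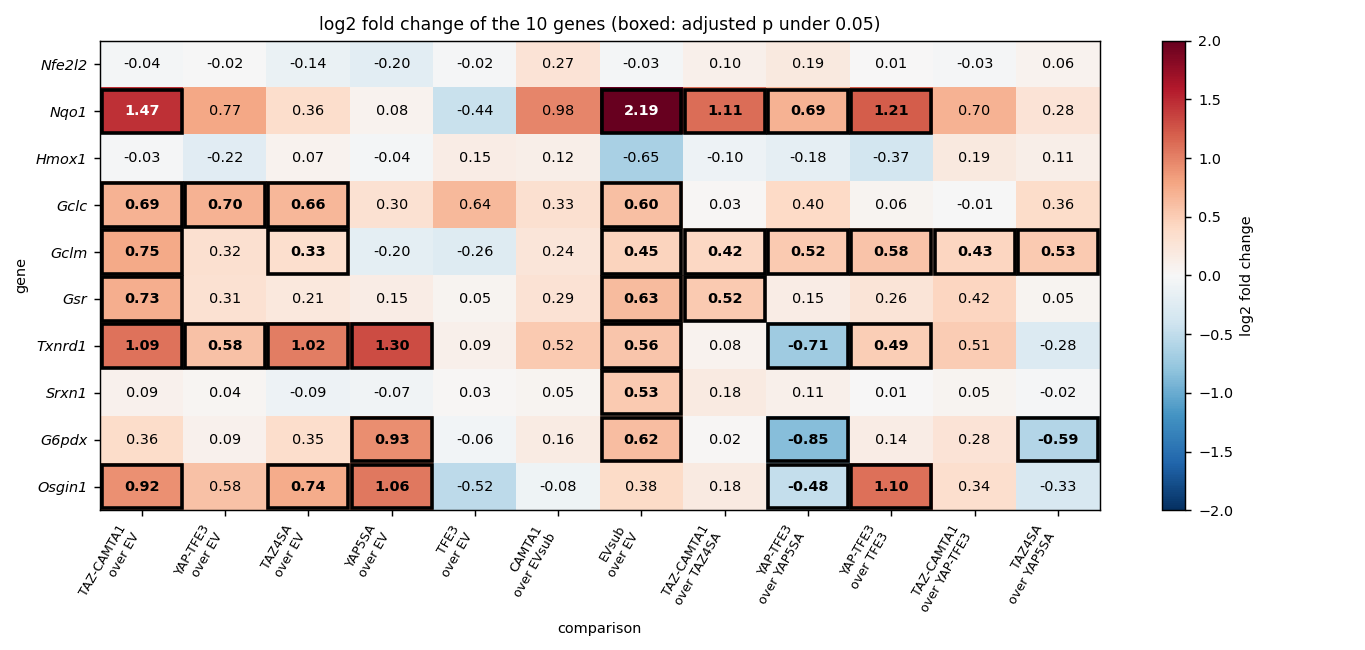
The log2 fold change of each gene (rows) in each of the 12 comparisons (columns), coloured from blue (lower in the first-named group) to red (higher), with the colour saturated beyond the ends of its bar; boxed bold values have an adjusted p under 0.05. Boxes fill 6 of 10 rows for TAZ-CAMTA1 over EV and 7 for EVsub over EV, and none for TFE3 over EV or CAMTA1 over EVsub.

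Among the confluent groups, TAZ-CAMTA1 had the most of the 10 genes higher than EV. Nqo1, Gclc, Gclm, Txnrd1, Gsr and Osgin1 rose (6 of 10), none fell, and in that comparison 12.5% of all genes tested rose. The median log2 fold change of the 10 was 0.71, beside -0.004 over all genes. For 7 of the 10, these 6 and G6pdx, every TAZ-CAMTA1 library lay above every EV library, which held for 23.1% of all genes. The 5 comparisons of confluent constructs with EV and that of EVsub with EV share the same 3 EV libraries, so they are set side by side below and not counted as independent of each other.

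Nqo1, which reduces quinones fully and so keeps them from redox cycling, showed the largest of these rises. It stood at 5.66, 5.63 and 5.18 CPM in EV and at 14.6, 17.1 and 13.9 in TAZ-CAMTA1, a log2 fold change of 1.47 ± 0.30 (SE, adjusted p = 0.00104), or 2.76-fold. Every TAZ-CAMTA1 library was thus well above the EV range. Of the glutathione genes, Gclm, the modifier subunit of glutamate-cysteine ligase, rose by 0.75 ± 0.13 (adjusted p = 0.000181), from 32.9, 41.7 and 36.2 CPM to 61.1, 68.8 and 57.0. Gclc, the catalytic subunit of the same enzyme, which catalyses the limiting step of glutathione synthesis, rose by 0.69 ± 0.19 (adjusted p = 0.0125), from 24.9, 23.6 and 26.5 CPM to 35.4, 48.4 and 37.3. The Gclc call rested on TAZ-CAMTA1 replicate 2, the highest of the 3, and without it the log2 fold change was 0.54 (adjusted p = 0.0912). Gsr, which reduces oxidised glutathione with NADPH, rose by 0.73 ± 0.16 (adjusted p = 0.00238), from 24.6, 35.6 and 22.0 CPM to 43.9, 50.5 and 41.9.

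Txnrd1, the cytosolic thioredoxin reductase, rose by 1.09 ± 0.18 in TAZ-CAMTA1 (adjusted p = 9.7e-05), from 161, 178 and 164 CPM to 314, 397 and 363. Srxn1, the sulfiredoxin that restores overoxidised peroxiredoxins, did not follow it, with 86.0, 102 and 89.8 CPM in EV and 98.1, 105 and 92.1 in TAZ-CAMTA1 (log2 fold change 0.09, 95% interval -0.22 to 0.39, adjusted p = 0.723). The libraries of the 2 groups overlapped for Srxn1. G6pdx, the first enzyme of the pentose phosphate pathway and a main source of NADPH, was at 81.7, 87.0 and 83.9 CPM in EV and 101, 112 and 112 in TAZ-CAMTA1, without overlap, but the log2 fold change of 0.36 missed the threshold (0.06 to 0.67, adjusted p = 0.0832). Osgin1, an oxidative stress-induced growth inhibitor, rose by 0.92 ± 0.22 (adjusted p = 0.00377), from 7.81, 6.45 and 7.26 CPM to 13.27, 15.98 and 11.54. Hmox1 overlapped between the groups, at 156, 137 and 188 CPM in EV and 161, 169 and 141 in TAZ-CAMTA1 (log2 fold change -0.03, -0.55 to 0.48, adjusted p = 0.948).

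In YAP-TFE3 2 of the 10 rose over EV, Gclc and Txnrd1, beside 10.6% of all genes that rose, and the median of the 10 was 0.31, beside 8.3e-06 over all genes. Gclc stood at 43.2, 38.4 and 40.5 CPM and rose by 0.70 ± 0.19 (adjusted p = 0.0145). Txnrd1, at 283, 230 and 241 CPM, rose by 0.58 ± 0.18 (adjusted p = 0.0254). Every YAP-TFE3 library was above every EV library for both genes. Nqo1 (11.3, 7.50 and 9.34 CPM, log2 fold change 0.77, adjusted p = 0.0909) and Osgin1 (11.6, 9.08 and 11.5 CPM, log2 fold change 0.58, adjusted p = 0.0779) also lay above every EV library but missed the threshold. Nqo1 passed without EVsub replicate 3 (adjusted p = 0.0164) and Osgin1 without CAMTA1 replicate 1 (0.0334), both outside the comparison. Without YAP-TFE3 replicate 1 neither gene was called (Gclc 0.63, adjusted p = 0.0735; Txnrd1 0.46, adjusted p = 0.158), and the Txnrd1 call was also lost, with nearly the same log2 fold change, without EV replicate 1 (0.55, adjusted p = 0.0899) or EV replicate 3 (0.57, adjusted p = 0.0863).

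In TAZ4SA and YAP5SA a far larger share of all genes was called in both directions. In TAZ4SA 4 of the 10 rose over EV, Gclc, Gclm, Txnrd1 and Osgin1, and none fell, where 31.1% of all genes rose and 26.4% fell; the median was 0.34, beside 0.05. In YAP5SA 3 of the 10 rose, Txnrd1, G6pdx and Osgin1, and none fell, where 36.3% of all genes rose and 34.9% fell. The median was 0.11, beside 0.01. In both groups the share of the 10 that rose was near that of all genes. Txnrd1 was the one gene called higher in TAZ-CAMTA1, YAP-TFE3, TAZ4SA and YAP5SA alike, and it was highest in YAP5SA, where 405, 415 and 418 CPM gave a log2 fold change of 1.30 ± 0.18 (adjusted p = 1.1e-06), and 378, 368 and 273 CPM in TAZ4SA gave 1.02 ± 0.18 (adjusted p = 4.5e-05). Osgin1 rose by 1.06 ± 0.22 in YAP5SA, to 18.1, 11.9 and 14.9 CPM (adjusted p = 0.000174), and by 0.74 ± 0.22 in TAZ4SA, to 10.4, 14.8 and 10.9 CPM (adjusted p = 0.00662). G6pdx rose by 0.93 ± 0.15 in YAP5SA, to 193, 124 and 165 CPM (adjusted p = 7.9e-06). In TAZ4SA G6pdx was at 107, 121 and 93.9 CPM, above every EV library, with a log2 fold change of 0.35 just outside the threshold (adjusted p = 0.05003), and without TAZ4SA replicate 3 it passed (0.43, adjusted p = 0.0216), as it did under 6 other single omissions.

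Among the glutathione genes, Gclc rose by 0.66 ± 0.19 in TAZ4SA (46.7, 42.4 and 29.6 CPM, adjusted p = 0.00591) and Gclm by 0.33 ± 0.13 (44.9, 47.1 and 47.4 CPM, adjusted p = 0.0329). The Gclm call was fragile: it was lost with DESeq2 (adjusted p = 0.0513), without EV replicate 1 (0.146) or EV replicate 3 (0.0824), and without TAZ4SA replicate 2 (0.0644) or replicate 3 (0.0595). Neither subunit passed the test in YAP5SA, where Gclm was at 33.9, 30.2 and 32.4 CPM (log2 fold change -0.20, adjusted p = 0.173) and Gclc at 29.0, 34.9 and 28.3 (0.30, adjusted p = 0.174). Nqo1 was near EV in both groups, at 5.56, 6.45 and 8.97 CPM in TAZ4SA (0.36, -0.28 to 0.99, adjusted p = 0.333) and 6.67, 4.76 and 5.96 in YAP5SA (0.08, -0.57 to 0.72, adjusted p = 0.834). Gsr did not pass in YAP-TFE3, TAZ4SA or YAP5SA, with log2 fold changes of 0.31, 0.21 and 0.15, but EV replicate 2, at 35.6 CPM the highest EV library, decided this, and without it Gsr passed in all 3 (0.54, adjusted p = 0.0239; 0.44, adjusted p = 0.0246; and 0.39, adjusted p = 0.0369).

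Hmox1 was the most variable gene within a group. In TAZ4SA it stood at 253, 176 and 76.8 CPM, both the highest and the lowest value of all 24 libraries, and the log2 fold change over EV was 0.07 (-0.45 to 0.59, adjusted p = 0.827). Without replicate 3 Hmox1 rose by 0.42 in TAZ4SA over EV (adjusted p = 0.0373) and by 0.46 over YAP5SA (adjusted p = 0.0434), and it fell by 0.45 in TAZ-CAMTA1 against TAZ4SA (adjusted p = 0.0268). In YAP5SA it was at 172, 137 and 160 CPM and in YAP-TFE3 at 151, 109 and 154, both overlapping EV, with log2 fold changes of -0.04 (adjusted p = 0.894) and -0.22 (adjusted p = 0.634). Srxn1 likewise overlapped EV in every confluent group, with log2 fold changes between -0.09 and 0.09.

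The full-length partners of the fusions had few or no calls among the 10, depending on the method. For TFE3 against EV the median log2 fold change of the 10 was 0.002, beside -0.02 over all genes. For TFE3 against EV none was called by edgeR, 2 had an unadjusted p under 0.05, DESeq2 called 1 (Gclc), and 2.36% of all genes were called higher. Gclc stood at 39.1, 37.4 and 40.4 CPM in TFE3, above every EV library, with a log2 fold change of 0.64 that missed the threshold (0.24 to 1.04, adjusted p = 0.0723). It was called with DESeq2 (adjusted p = 0.0265) and without EVsub replicate 3 (0.0284), TAZ4SA replicate 3 (0.035) or CAMTA1 replicate 1 (0.0491), libraries outside the comparison. Osgin1, at 5.05, 5.49 and 4.46 CPM, lay below every EV library (log2 fold change -0.52, adjusted p = 0.271), as did Nqo1, at 4.29, 4.22 and 3.63 (-0.44, adjusted p = 0.599).

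For CAMTA1 against EVsub none of the 10 was called by edgeR either, 3 had an unadjusted p under 0.05, DESeq2 called 1 (Nqo1, adjusted p = 0.0203), and 1.29% of all genes were called higher. The log2 fold change was positive for 9 of the 10, with a median of 0.25, beside -0.03 over all genes. Nqo1 stood at 56.3, 58.7 and 33.9 CPM in CAMTA1 and at 36.4, 27.5 and 11.3 in EVsub, overlapping, with a log2 fold change of 0.98 (0.41 to 1.55, adjusted p = 0.064). Single libraries decided this value in both directions. Without EVsub replicate 3 it was 0.63 (adjusted p = 0.143), without EVsub replicate 1 it was 1.35 (adjusted p = 0.0101) and without CAMTA1 replicate 3 it was 1.20 (adjusted p = 0.0289), and it also passed without TAZ4SA replicate 3 (0.0393). Txnrd1 had a log2 fold change of 0.52 (adjusted p = 0.118), which was 0.69 without EVsub replicate 1 (adjusted p = 0.0392) and 0.29 without EVsub replicate 3 (adjusted p = 0.312).

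Between the empty vector groups more of the 10 genes differed than between any construct and its control. In EVsub against EV, where both groups carried the empty vector and differed in confluence, 7 of the 10 rose (Nqo1, Gclc, Gclm, Txnrd1, Srxn1, Gsr and G6pdx) and none fell, beside 12.5% of all genes that rose. The median was 0.54, beside 0.02. Nqo1 rose by 2.19 ± 0.30, or 4.56-fold (adjusted p = 3.4e-05), from 5.18 to 5.66 CPM in EV to 36.4, 27.5 and 11.3 in EVsub. G6pdx rose by 0.62 ± 0.15 (adjusted p = 0.0046), to 139, 147 and 101 CPM. Only these 2 genes had every EVsub library above every EV library, 2 of 10, beside 19.2% of all genes.

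In the other 5 genes EVsub replicate 3 overlapped EV. Srxn1 rose by 0.53 ± 0.15 (adjusted p = 0.0121), with 142, 160 and 98.2 CPM in EVsub, and this was the single comparison in which Srxn1 passed the test. Txnrd1 rose by 0.56 ± 0.18 (300, 281 and 160 CPM, adjusted p = 0.0252) and Gsr by 0.63 ± 0.16 (45.7, 48.9 and 32.8 CPM, adjusted p = 0.00745). Gclc rose by 0.60 ± 0.19 (45.1, 42.7 and 25.5 CPM, adjusted p = 0.0296) and Gclm by 0.45 ± 0.13 (55.4, 55.1 and 40.9 CPM, adjusted p = 0.0151). With EVsub replicate 3 left out the same 7 genes were called, with larger log2 fold changes: 2.54 for Nqo1, 0.81 for Gclc, 0.79 for Txnrd1 and Gsr, 0.76 for G6pdx, 0.70 for Srxn1 and 0.58 for Gclm. Other libraries mattered more to the calls. The 7 became 3 without EV replicate 1 or EVsub replicate 1 and 2 without EV replicate 3 or EVsub replicate 2, and 2 when the fit held these groups alone, with Hmox1 then called lower (-0.66, adjusted p = 0.0202). Without EV replicate 2 the Gclc call was lost (0.56, adjusted p = 0.0816). The calls lost under these settings had log2 fold changes of 0.37 to 0.64, while Nqo1 and G6pdx were called under all 30 alternatives. Hmox1 went the other way, at 96.9, 103 and 106 CPM, below every EV library, with a log2 fold change of -0.65 (-1.17 to -0.14, adjusted p = 0.0647) that passed with DESeq2 (adjusted p = 0.0374) and without TAZ4SA replicate 1 (0.0274) or replicate 3 (0.00349).

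The direct comparisons set the fusions against the proteins they derive from. In TAZ-CAMTA1 against TAZ4SA 3 of the 10 were higher, Nqo1, Gclm and Gsr, and none was lower. That share is near the 26.6% of all genes that were higher. Nqo1 was higher by 1.11 ± 0.30 (95% interval 0.50 to 1.72, adjusted p = 0.00321), Gclm by 0.42 ± 0.13 (0.16 to 0.69, adjusted p = 0.00852) and Gsr by 0.52 ± 0.16 (0.19 to 0.86, adjusted p = 0.00954), and for each gene every TAZ-CAMTA1 library was above every TAZ4SA library. Txnrd1 (0.08, -0.29 to 0.44), Gclc (0.03, -0.37 to 0.43), G6pdx (0.02, -0.29 to 0.32) and Osgin1 (0.18, -0.26 to 0.63) did not pass, with adjusted p from 0.482 to 0.926.

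In YAP-TFE3 against YAP5SA the 10 genes split. Gclm (0.52 ± 0.13, adjusted p = 0.00118) and Nqo1 (0.69 ± 0.30, adjusted p = 0.0466) were higher in the fusion, 2 of 10, beside 36.4% of all genes. G6pdx fell by 0.85 (SE 0.15, adjusted p = 2.7e-05), Txnrd1 by 0.71 (SE 0.18, adjusted p = 0.00101) and Osgin1 by 0.48 (SE 0.21, adjusted p = 0.0483), 3 of 10, beside 34.5% of all genes. The shares are therefore near or under those of all genes in both directions. The Nqo1 and Osgin1 calls lay at the threshold. Gclc missed it by little (0.40, adjusted p = 0.065) and passed under 8 of 30 alternatives. Nqo1 and Osgin1 were each lost under 15, and the largest adjusted p were 0.158 for Nqo1, without YAP5SA replicate 2, and 0.228 for Osgin1, without YAP5SA replicate 1.

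Against full-length TFE3, YAP-TFE3 was higher for Nqo1 (1.21 ± 0.31, adjusted p = 0.00536), Osgin1 (1.10 ± 0.22, adjusted p = 0.000754), Gclm (0.58 ± 0.13, adjusted p = 0.00205) and Txnrd1 (0.49 ± 0.18, adjusted p = 0.0476), 4 of 10, beside 14.3% of all genes. The Txnrd1 call was lost under 17 of 30 alternatives, with an adjusted p of up to 0.224 without YAP-TFE3 replicate 1. Gclc did not differ by the test between these groups (0.06, -0.33 to 0.46, adjusted p = 0.868). The fusions differed from each other in 1 of the 10, beside 5.32% of all genes: Gclm was higher in TAZ-CAMTA1 than in YAP-TFE3 by 0.43 ± 0.13 (adjusted p = 0.0291), a call lost without either of TAZ-CAMTA1 replicates 1 (0.052) and 2 (0.16) or YAP-TFE3 replicates 2 (0.13) and 3 (0.0929). Nqo1 (0.70, 0.11 to 1.30, adjusted p = 0.12) and Txnrd1 (0.51, 0.15 to 0.87, adjusted p = 0.0626) were above every YAP-TFE3 library in TAZ-CAMTA1 without passing the test. Both passed without EVsub replicate 3 (adjusted p = 0.0252 and 0.0123). In TAZ4SA against YAP5SA, Gclm was higher by 0.53 ± 0.13 (adjusted p = 0.0026), 1 of 10 beside 22.8% of all genes, and G6pdx fell by 0.59 (SE 0.15, adjusted p = 0.00307), 1 of 10 beside 19.6%. Gclc passed there without TAZ4SA replicate 3 (0.54, adjusted p = 0.0385).

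Over the 8 group means of log2 CPM, the genes fell into patterns that are given here as a description, since the groups share libraries' processing and a cell line. Nqo1 was most like Gsr (Pearson r = 0.95), Srxn1 (0.90) and Gclm (0.83), all with high values in the sub-confluent groups and in TAZ-CAMTA1 or, for Srxn1, in the sub-confluent groups alone. Txnrd1 was most like Osgin1 (0.83) and G6pdx (0.79), whose means were highest in YAP5SA. Hmox1 had a negative r with each of the other 9. Neighbouring groups in the order of means mostly overlapped: of 7 neighbouring pairs per gene, libraries overlapped in all 7 for Hmox1, Gclm, Srxn1 and Gsr, in 6 for Nfe2l2, Gclc, Txnrd1, G6pdx and Osgin1 and in 5 for Nqo1. The gaps in Nqo1 were those between TFE3 and EV and between YAP-TFE3 and TAZ-CAMTA1, and the gap in Txnrd1 was that between TAZ-CAMTA1 and YAP5SA.

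Libraries of a group also deviated together. Among the 9 targets, the deviations of the 24 libraries from their group means had a positive r in 28 of 36 gene pairs, with a median of 0.54 and a range of -0.34 to 0.84. YAP-TFE3 replicate 2 was the lowest of its group for all 9 targets, CAMTA1 replicate 3 for 8, and TAZ-CAMTA1 replicate 2 was the highest for 8. Osgin1 stood aside, with r between -0.34 and 0.10 with the other 8.

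Between groups, markers of dividing cells moved with several of the genes, but within groups they did not always do so. The sum of Mki67, Top2a, Cdk1, Ccnb1, Mcm2 and Mcm5, a list added after the values were seen, was 289, 566 and 303 CPM in EV, 1334, 1762 and 602 in EVsub and 1573, 1198 and 1063 in CAMTA1. In TAZ-CAMTA1 it was 606, 827 and 890, above every EV library, while it was 443, 505 and 410 in YAP-TFE3, 260, 349 and 680 in TAZ4SA, 343, 365 and 494 in YAP5SA and 396, 434 and 402 in TFE3. EVsub replicate 3, the library with the lowest Nqo1 of its group, thus also had its lowest marker sum, and EV replicate 2, with the highest Gsr of EV, its highest. By contrast, TAZ-CAMTA1 replicate 3 had the highest marker sum of its group but its lowest Nqo1 (13.9 CPM), Gsr (41.9) and Gclm (57.0). YAP-TFE3 replicate 2 likewise had the highest sum of its group but was its lowest library for all 9 targets. Libraries with like sums still differed in Nqo1: EV replicate 2 (566) had 5.63 CPM, EVsub replicate 3 (602) 11.3, TAZ-CAMTA1 replicate 1 (606) 14.6 and TAZ4SA replicate 3 (680) 8.97. Whether proliferation accounts for any of the differences was not tested.

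**Figure D3:**
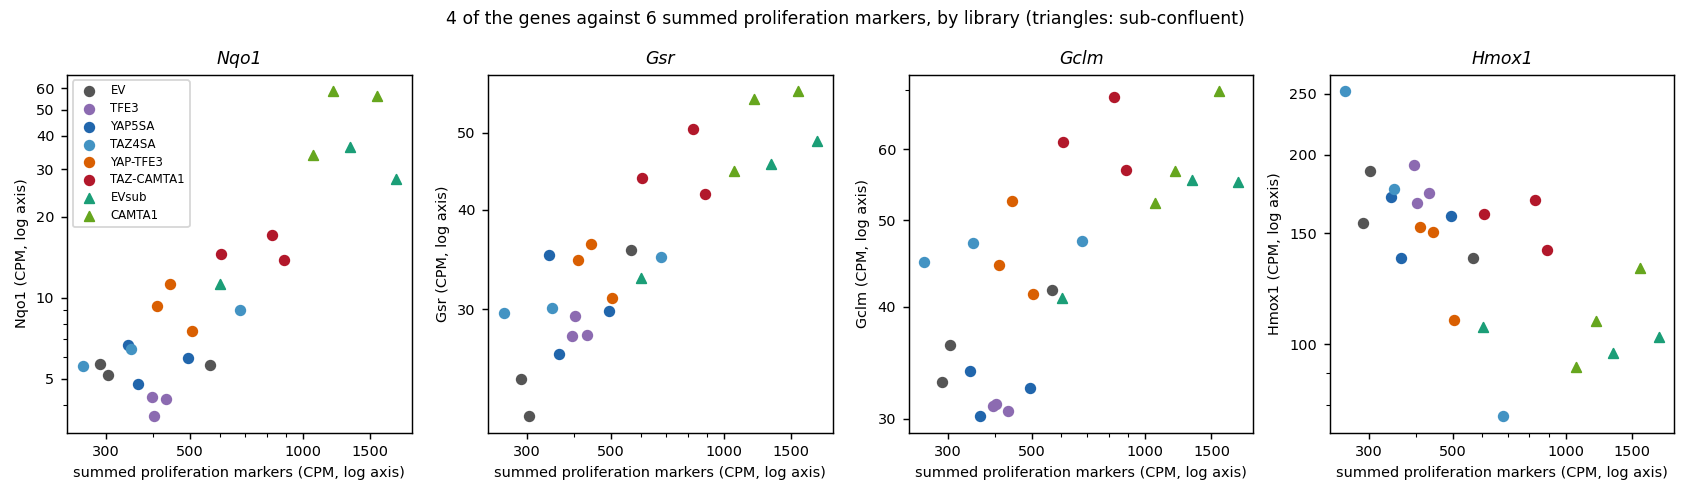
CPM of Nqo1, Gsr, Gclm and Hmox1 (vertical, log axis) against the summed CPM of 6 proliferation markers (horizontal, log axis), with 1 point per library, coloured by group; triangles are the sub-confluent groups. The sub-confluent libraries lie at 602 to 1762 CPM of markers with 11.3 to 58.7 CPM of Nqo1 and 92.05 to 132 CPM of Hmox1.

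By the same measure over the 8 group means, 2 genes most like each member were sought among 11353 other genes averaging 50 counts or more. They were Chd1l and Fanca for Nqo1 (r = 0.98 and 0.97), Cenpq and Cep55 for Gsr (0.98 and 0.97), Eri2 and Neil3 for Srxn1 (0.99 for both) and Magi3 and Gm9892 for Gclm (0.97 for both). Txnrd1 was most like Map1b and Sh3bp4 (0.98 for both), G6pdx like Slc25a4 and Tpm4 (0.99 and 0.98) and Osgin1 like Sms-ps and Cdk2ap2 (0.97 for both). Gclc was most like Cdv3 and Itpr3 (0.91 and 0.90), Hmox1 like Dock9 and Fpgt (0.95 and 0.94) and Nfe2l2 like Armcx5 and Ccdc66 (0.97 and 0.96). With 8 points and so many candidates, high values of r are common, and Gclc had the lowest.

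Of the genes whose proteins act around NRF2, some were called in each fusion and activated group, in both directions. Maff, a small MAF partner, rose in all 4 fusion and activated groups, from 12.5 CPM ± 2.22 (SD, n = 3) in EV to 34.7 ± 7.31 in TAZ-CAMTA1 (log2 fold change 1.47, adjusted p = 2.7e-05), 33.4 ± 4.12 in YAP-TFE3 (1.42, adjusted p = 5.7e-05), 35.9 ± 13.6 in TAZ4SA (1.52, adjusted p = 3.7e-06) and 74.0 ± 8.53 in YAP5SA (2.56, adjusted p = 1.0e-09). Mafk, another partner, rose in the same 4, by 1.10, 0.74, 1.96 and 2.53 (adjusted p from 3.4e-10 to 0.0105). The repressor Bach1 fell in all 4 and in EVsub, by 0.52 in TAZ-CAMTA1, 0.35 in YAP-TFE3, 0.72 in TAZ4SA, 0.84 in YAP5SA and 0.61 in EVsub (adjusted p from 1.2e-07 to 0.0156). Keap1 fell by 0.38 in TAZ4SA (adjusted p = 0.0164) and by 0.73 in YAP5SA (adjusted p = 3.8e-05), and did not pass in TAZ-CAMTA1 (0.12, adjusted p = 0.565) or YAP-TFE3 (-0.08, adjusted p = 0.739). Sqstm1, whose protein p62 draws KEAP1 into autophagy, and the related factor Nfe2l1 rose in TAZ4SA (0.88 and 0.99) and YAP5SA (0.99 and 0.93), with adjusted p between 7.8e-08 and 0.000166, and Nfe2l1 also rose in YAP-TFE3 (0.35, adjusted p = 0.0233). Cul3, of the ligase that ubiquitinates NRF2, rose in TAZ4SA and YAP5SA (0.48 and 0.57), as did Bach2, a relative of Bach1 (0.62 and 1.33), Btrc, of a second ligase of NRF2 (0.40 and 1.09), and the stress-induced Sesn2 (1.27 and 0.89), with adjusted p between 4.3e-07 and 0.0177. Rbx1, a subunit of such ligases, fell by 0.74 in TAZ4SA (adjusted p = 2.3e-06). The small MAF gene Mafg fell by 0.32 in YAP-TFE3 (adjusted p = 0.0252) and rose by 0.30 in TAZ4SA (adjusted p = 0.00987). Palb2 rose in TAZ-CAMTA1 (0.88, adjusted p = 0.0281), Fbxw11 in TAZ4SA (0.23, adjusted p = 0.0337) and Dpp3 in YAP5SA (0.50, adjusted p = 0.00172). Of the 16 regulators tested, 3 rose and 1 fell in TAZ-CAMTA1 (12.5% and 8.98% of all genes), 3 and 2 in YAP-TFE3 (10.6% and 4.74%), 10 and 3 in TAZ4SA (31.1% and 26.4%), 9 and 2 in YAP5SA (36.3% and 34.9%), 0 and 1 in EVsub (12.5% and 9.59%), and none was called in TFE3 or in CAMTA1 against EVsub. The median log2 fold change of the 16 was -0.01 in TAZ-CAMTA1, -0.03 in YAP-TFE3, 0.35 in TAZ4SA and 0.54 in YAP5SA.

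The wider lists, 121 genes in 7 lists of which 118 were tested, are given by counts. They include the regulators above, some of which act against NRF2, and superoxide and peroxide enzymes listed as outside NRF2, so the totals are not counts of NRF2 targets. In TAZ-CAMTA1 36 of the 118 rose and 11 fell (30.5% and 9.32%), beside 12.5% and 8.98% of all genes, and in YAP-TFE3 27 rose and 6 fell (22.9% and 5.08%), beside 10.6% and 4.74%. In TAZ4SA 52 rose and 29 fell (44.1% and 24.6%), beside 31.1% and 26.4%, and in YAP5SA 70 rose and 23 fell (59.3% and 19.5%), beside 36.3% and 34.9%. In EVsub 24 rose and 9 fell (20.3% and 7.63%), beside 12.5% and 9.59%. In TFE3 3 rose (2.54%) and none fell, beside 2.36% of all genes that rose, a share near that of the lists. In CAMTA1 against EVsub 3 rose (2.54%) and 1 fell, beside 1.29% of all genes that rose.

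The list for NADPH production holds 16 enzymes around NADPH, a cofactor that Gsr, Txnrd1 and Nqo1 use, and not all of them make it themselves. Of the 16, 7 rose and none fell in TAZ-CAMTA1 (12.5% and 8.98% of all genes), 2 and 0 in YAP-TFE3 (10.6% and 4.74%) and 6 and 0 in EVsub (12.5% and 9.59%). In TAZ4SA 9 rose and 3 fell (31.1% and 26.4% of all genes), and in YAP5SA 11 and 2 (36.3% and 34.9%). The share that rose in YAP-TFE3 is near that of all genes. Mthfd2, of mitochondrial folate metabolism, had the largest rise in TAZ-CAMTA1, from 39.5 CPM ± 15.7 to 95.6 ± 12.6 (1.28, adjusted p = 0.00205), and Taldo1, of the pentose phosphate pathway, that in YAP5SA, from 86.5 ± 3.95 to 406 ± 32.9 (2.23, adjusted p = 4.6e-10). Idh1 fell in TAZ4SA and YAP5SA, by 0.86 and 0.71 (adjusted p = 6.2e-06 and 3.4e-05). In the thioredoxin and peroxiredoxin list 4 of 13 rose and 2 fell in TAZ-CAMTA1 (12.5% and 8.98% of all genes) and 11 of 13 rose in YAP5SA (36.3%). Prdx6, a peroxiredoxin that also repairs membrane phospholipids, had the largest rise of that list in TAZ-CAMTA1 (1.21, adjusted p = 2.1e-05), YAP-TFE3 (0.83, adjusted p = 0.00143) and YAP5SA (2.44, adjusted p = 1.1e-10), while Txnrd3 fell in both fusions (0.59 and 0.74, adjusted p = 0.00345 and 0.000555).

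Among the glutathione genes 12 of 28 rose and 4 fell in TAZ-CAMTA1 (12.5% and 8.98% of all genes) and 9 and 1 in YAP-TFE3 (10.6% and 4.74%). In TAZ4SA 7 rose and 8 fell (31.1% and 26.4% of all genes), and in YAP5SA 14 and 7 (36.3% and 34.9%). The shares in TAZ4SA are near those of all genes. Gsta1, a glutathione transferase, rose from 0.617 CPM ± 0.205 in EV to 18.3 ± 6.01 in YAP5SA (4.87, adjusted p = 1.7e-08), and Mgst1, a membrane-bound one, fell by 2.53 (adjusted p = 5.5e-11). In the detoxification list the largest rises were of Aldh3a1 in TAZ-CAMTA1 (from 1.27 CPM ± 0.650 to 11.8 ± 0.597, 3.20, adjusted p = 4.5e-06), Akr1b3 in YAP-TFE3 (2.91, adjusted p = 3.8e-06) and Aldh1a1 in TAZ4SA and YAP5SA (4.58 and 4.08), an aldehyde dehydrogenase of retinoid metabolism. Ugt1a6a, a glucuronosyltransferase that shares exons with its neighbours of the Ugt1a cluster, fell by 5.44 in YAP5SA (adjusted p = 1.9e-12). Of the haem and iron genes, the biliverdin reductase gene Blvrb rose in TAZ4SA (1.81) and YAP5SA (2.36), Blvra, which encodes the enzyme for the biliverdin that Hmox1 yields, fell by 0.33 in TAZ-CAMTA1 (adjusted p = 0.0481), Tfrc, the transferrin receptor, rose in TAZ-CAMTA1 (1.66, adjusted p = 0.00396) and Slc40a1, the iron exporter, fell in TAZ4SA and YAP5SA by 1.62 and 3.96. Sod3, the extracellular superoxide dismutase, rose in TAZ-CAMTA1 (3.64, adjusted p = 4.1e-06) and YAP-TFE3 (2.87, adjusted p = 9.9e-05). It was the 1 gene of 10 to pass in TAZ-CAMTA1 from the list of superoxide and peroxide enzymes, beside 12.5% of all genes that rose.

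**Figure D4:**
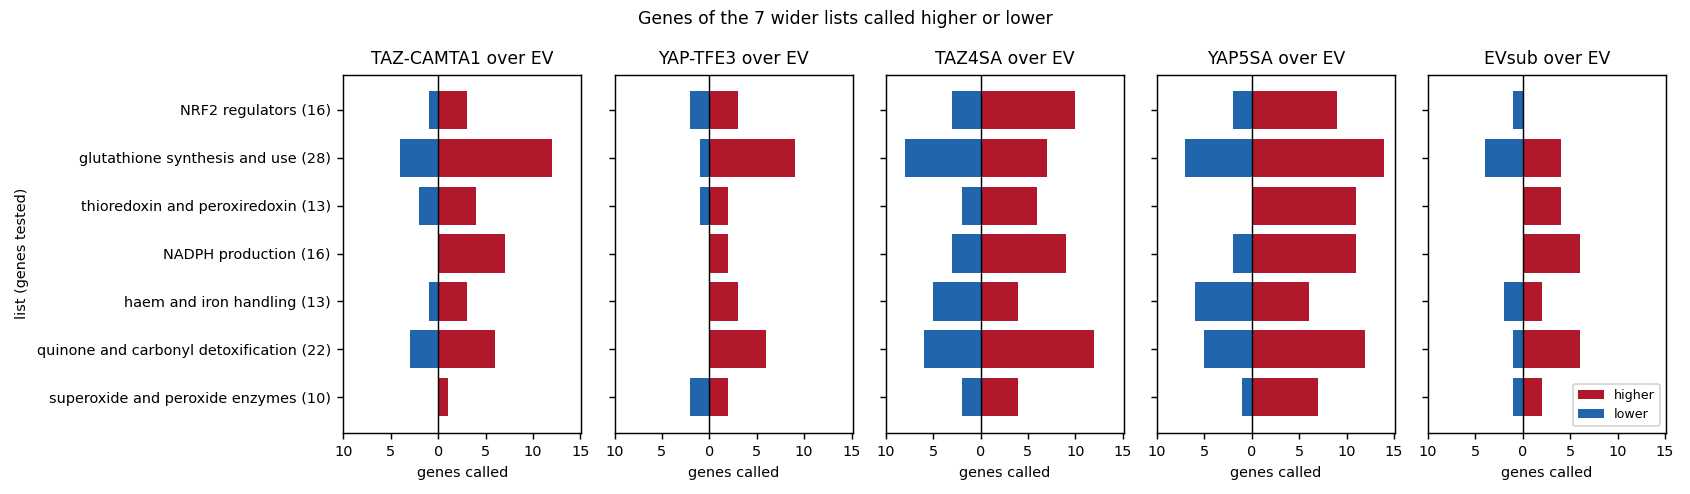
Number of genes called higher (red, to the right of 0) or lower (blue, to the left) in each of the 7 wider lists, for 5 comparisons with EV; the number in brackets is how many genes of the list were tested. In TAZ-CAMTA1 the NADPH list has 7 rises and no fall (12.5% and 8.98% of all genes), and in TAZ4SA the glutathione list has 7 rises and 8 falls (31.1% and 26.4%).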

How the data were processed

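Polyadenylated RNA of 24 NIH 3T3 libraries, from lines transduced separately in triplicate, was sequenced as stranded paired-end reads, demultiplexed with bcl2fastq and aligned by the authors to mm10 with Hisat2 in bcbio-nextgen. The authors deposited raw read counts per Ensembl gene for each library; the counting program and its use of strand are not given in the sources used here. Of 39017 identifiers, 37693 were matched to GENCODE M21 for names, positions and exon lengths. Genes that averaged 5 counts or more (14361) were fitted over all 24 libraries with edgeR 4.0.16 (R 4.3.3), with TMM factors and the quasi-likelihood test, in 12 comparisons, and p-values were adjusted by Benjamini-Hochberg over all genes tested. A gene was called at an adjusted p under 0.05. CPM values used TMM-scaled library sizes. Replicates differed by more than counting error in every group (chi-square per degree of freedom 5.91 to 124).

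All 10 genes are described in all comparisons. Of the wider lists, every called regulator and, per list and confluent comparison with EV, the called gene with the largest rise and fall that averaged 50 counts or more could be named, and the 2 genes most like each member by Pearson's r. The members and lists were chosen with earlier results of these data known. Nfe2l3, Gstt2 and Nox4 fell below the count minimum. Alternatives were DESeq2 1.42.0, its size factors in edgeR, no filter (24737 genes), a floor of 10 counts in each library (11461), a replicate block, only the groups compared, and leaving out each library in turn.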

Additional observations from a re-analysis of the deposited data

How the results depend on the processing

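Each of the 120 log2 fold changes of the 10 genes was recomputed under 30 alternatives. Of 3600 values, 3442 kept their side of the threshold, 90 lost a call and 68 gained one. None of the called values changed sign, while 64 uncalled values did. Of 37 calls, 24 held under all 30. The number of genes called moved in these cases, and the cause was not tested. Without a filter on low counts it was 4 for YAP-TFE3 against EV, 1 for TFE3 against EV, 2 for CAMTA1 against EVsub and 3 for TAZ-CAMTA1 against YAP-TFE3. With DESeq2 it was 1, 1 and 2 for the last 3 of these. With at least 10 counts in every library it was 5 for YAP5SA against EV. Among these, Nfe2l2 and Gclm were called lower (-0.30 for both, adjusted p = 0.0128 and 0.0393). With only the groups compared, which leaves fewer samples to estimate the spread, it was 4 for YAP-TFE3, 2 (Osgin1, called lower, among them) for TFE3 and 3 (Hmox1, called lower, among them) for EVsub against EV, and 5 for TAZ-CAMTA1 against YAP-TFE3. Leaving out 1 library gave 0 to 3 for YAP-TFE3, 0 to 1 for TFE3 and 2 to 8 for EVsub against EV, 0 to 2 for CAMTA1 against EVsub, 3 to 6 for YAP-TFE3 against YAP5SA, 0 to 3 for TAZ-CAMTA1 against YAP-TFE3 and 2 to 4 for TAZ4SA against YAP5SA. Same-numbered replicates did not deviate together throughout any comparison (r from -0.21 to 0.41, with 0 of 12 comparisons above 0.1 in every pair). In CAMTA1 against EVsub r was 0.25, -0.0025 and 0.41 for replicates 1, 2 and 3. Differently numbered replicates were not compared, and the numbers were not used as pairs in the main fit. With the replicate block the count was 2 for TAZ-CAMTA1 against YAP-TFE3 and within 1.5 times of the main count in the other 11 comparisons. Counts of the 10 genes went down to 86 in a library; replicates spread beyond counting error, and what depth alone limits was not measured.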
